A study of Homo sapiens with 6 samples.

Results

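The genes described here are 48 human synaptic adhesion genes out of 20037 protein-coding genes on chromosomes 1 to 22, X and Y. They were chosen by name as neurexins, neuroligins, receptor phosphatases, latrophilins and related families, with no threshold on a measured value. All 48 were found in the RefSeq gene table. They were examined in CUT&RUN peak lists for MYT1L, a zinc-finger transcription factor of neurons. In CUT&RUN an antibody tethers a nuclease to chromatin, and the fragments it releases are sequenced. All 6 libraries came from wild-type cells of H1, a single human embryonic stem cell line, at day 30: 4 used a MYT1L antibody and 2 used IgG, which has no chromatin target and serves as the control. The design text describes the cells as cortical interneurons made from the stem cells, whereas the sample labels give the cell type as embryonic stem cells. Peak lists hold no expression values, so the cell type could not be checked against marker genes. No label says that the libraries came from separate differentiations, so the p-values measure only the spread between these libraries.

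Synaptic adhesion proteins span the cleft between neurons and hold the sending and receiving membranes in register. On the presynaptic side neurexins and receptor phosphatases such as PTPRD act as hubs that bind many partners. On the postsynaptic side neuroligins, leucine-rich repeat proteins and calsyntenins are among those partners, while latrophilins bind teneurins and FLRT proteins. Many of these genes are very long, and several make proteins of different length from more than 1 promoter. MYT1L is known in neurons mainly as a repressor that keeps programmes of other cell types silent, and its zinc fingers bind an AAGTT core.

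MYT1L peaks lay in or near most of these genes, and the positions shared by at least 3 of the 4 MYT1L libraries were fewer. A region was made of MYT1L peaks that overlapped by at least 1 bp, and it is called reproducible here when at least 3 of the 4 MYT1L libraries had a peak in it. The genes and their 5 kb flanks held 158 regions, and 43 of the 48 genes had at least 1 (background 84.1%). Of the regions 31 were reproducible, and none of the 31 overlapped an IgG peak. Over the whole series 11091 of 12299 reproducible regions were also free of an IgG peak. A reproducible region lay at 22 of the 48 genes, against a share of 48% of all protein-coding genes. Within 1 kb of an annotated transcription start, 15 of the 43 genes with such a start had a reproducible region, against 42.2% of protein-coding genes with a start. No start was used for the other 5 genes, which does not mean that they lack one. A region in any number of MYT1L libraries lay at a start of 33 of the 43 (background 72.3%). The highest mean folds at a start were at an internal start of TENM3, a teneurin, and at the 5′ start of PTPRD. No reproducible region was seen at 26 of the genes, and CNTN6, IL1RAPL2, LRRTM3, NLGN3 and SLITRK6 had no MYT1L peak at all.

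The DNA just before 4 of these starts is shown because it lies in, or next to, a region found in all 4 MYT1L libraries. PTPRD and TENM3 had the highest mean folds at a start, NRXN3 had its region at an internal start, and FLRT3 had 2 copies of the hexamer searched. The 4 were picked after their values were seen. Each line gives the 250 bases before the start, 5′ to 3′ along the gene's strand, from RefSeq on GRCh38.p14, and capitals mark AAGTTT or its reverse complement AAACTT.
PTPRD, chr9:10613003-10613252, minus strand: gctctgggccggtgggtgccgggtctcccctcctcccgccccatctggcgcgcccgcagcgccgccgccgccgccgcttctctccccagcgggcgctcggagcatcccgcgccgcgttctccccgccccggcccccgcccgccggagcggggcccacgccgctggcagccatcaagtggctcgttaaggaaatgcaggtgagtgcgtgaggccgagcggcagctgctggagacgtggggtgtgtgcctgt
TENM3, chr4:182448766-182449015, plus strand: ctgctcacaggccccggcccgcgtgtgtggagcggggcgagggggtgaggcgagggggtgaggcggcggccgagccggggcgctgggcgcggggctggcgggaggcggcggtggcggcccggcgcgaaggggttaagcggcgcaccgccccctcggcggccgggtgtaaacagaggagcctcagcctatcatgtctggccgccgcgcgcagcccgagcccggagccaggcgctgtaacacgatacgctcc
NRXN3, chr14:79279130-79279379, plus strand: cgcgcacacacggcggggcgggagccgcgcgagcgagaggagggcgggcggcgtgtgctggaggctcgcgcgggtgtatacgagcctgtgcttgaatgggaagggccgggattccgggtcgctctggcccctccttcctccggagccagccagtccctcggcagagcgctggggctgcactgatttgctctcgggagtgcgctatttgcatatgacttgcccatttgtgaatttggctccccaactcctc
FLRT3, chr20:14337613-14337862, minus strand: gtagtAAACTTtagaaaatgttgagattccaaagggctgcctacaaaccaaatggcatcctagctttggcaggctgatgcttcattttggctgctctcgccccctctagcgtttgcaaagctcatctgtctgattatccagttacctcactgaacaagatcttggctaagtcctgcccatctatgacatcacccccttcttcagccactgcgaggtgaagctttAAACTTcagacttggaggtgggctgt
The first 3 lie wholly inside their reproducible region and have no copy of the hexamer. Their G and C content was 76.0% for PTPRD, 77.2% for TENM3 and 66.4% for NRXN3. The FLRT3 sequence had 47.6% G and C, with copies starting 245 and 26 bases before the start.

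The hexamer AAGTTT, read on both strands, was then counted in the window from 250 bases before to 50 after each of the 74 annotated starts of these genes. It was present in 8 of them (10.8%), against 10.9% of all 22175 protein-coding starts. Of the 22 starts with a reproducible region within 1 kb, 3 held it (13.6%), against 7.54% of all such protein-coding starts. They were FLRT3 and a pair of neighbouring ADGRL2 starts that share 1 region. A copy in the window need not lie in the region. Both ADGRL2 windows lie outside their region, as does the farther FLRT3 copy, while the nearer FLRT3 copy lies inside its region. Of the 22 member starts with no region 4 held it (18.2%), against 16.4% over all protein-coding starts. Base composition moved with the peaks. Starts that share a region are not separate observations. Of the 22 starts with a reproducible region, 6 are ADGRL2 starts near 1 region. The median G and C content of the window was 67.0% for starts with a reproducible region, 64.8% for starts with a region in 1 or 2 libraries or with an IgG peak and 46.2% for starts with no region. The same 3 medians over all protein-coding starts were 67.3%, 64.7% and 50.3%. A reproducible region was present at 5 of the 13 member starts with at least 70% G and C (58.5% of all such starts) and at 12 of the 26 with 60% to 70% (48.5%). It was present at 2 of the 13 with 50% to 60% (27.7%), at 3 of the 16 with 40% to 50% (9.95%) and at none of the 6 below 40% (4.54%). The part of base composition in the peaks was not tested.

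The first comparison set MYT1L against IgG at these genes. On the chromosomes used, the MYT1L lists held 27926, 12310, 18966 and 30086 peaks in replicates 1 to 4, and the IgG lists held 976 and 998. Depth is not stated and was estimated from the peaks as background fragments per kb. It was 5.99, 2.25, 5.26 and 4.78 in MYT1L replicates 1 to 4 and 1.55 and 0.951 in the IgG libraries, so every MYT1L library was deeper than both controls. In each MYT1L list the peaks are named with a sample number 1 higher than in the sample title, and replicate numbers here follow the titles.

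At the 48 genes the MYT1L libraries had 87, 34, 51 and 104 peaks in replicates 1 to 4, and each IgG library had 1. The mean was 69.0 ± 32.1 (SD, n = 4) for MYT1L and 1 ± 0 (SD, n = 2) for IgG. Every MYT1L library lay above both controls, and the log2 ratio of geometric means was 5.98 (p = 0.133 by an exact two-sided permutation test, and 15 assignments of the labels allow no smaller value). The ratio of means was 69.0, with an interval of 18.9 to 573 at a confidence level of 95%. This interval covers counting error only, as do all intervals here, and reads were not stated to carry molecular identifiers.

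Part of this contrast moved with depth. Thinning the MYT1L libraries to match IgG replicate 1 left an expected 10.8, 20.2, 7.26 and 38.6 peaks at these genes, against 1 in the control itself. Thinning them to match IgG replicate 2 left 6.14, 10.8, 3.56 and 22.6, again against 1. The MYT1L numbers stayed above the control at both depths, with log2 ratios of 3.98 and 3.10.

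As a share of each list, the peaks at these genes came to 0.312%, 0.276%, 0.269% and 0.346% for MYT1L replicates 1 to 4. They came to 0.102% and 0.100% for IgG, each resting on 1 peak, with a Wilson interval of 0.0181% to 0.578% for IgG replicate 1. The MYT1L mean was 0.301% ± 0.0354 (SD, n = 4) and the IgG mean 0.101% ± 0.00160 (SD, n = 2), and they differed by 0.199 percentage points (p = 0.133 by the same exact permutation test). The MYT1L shares fall inside that control interval. The genes with their flanks cover 0.809% of chromosome length, so both antibodies placed a smaller share of peaks there than that length. The share moved with the length of the list. Among the 976 strongest peaks of every list, MYT1L replicates 1 to 4 had 1, 0, 0 and 1 at these genes and each IgG library had 1, and the difference turned to -0.0512 percentage points (exact permutation p = 0.8).

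Most of the genes had a peak in the MYT1L libraries with the longest lists. MYT1L replicate 4 had a peak at 43 of the 48 genes (background 77.5% of protein-coding genes) and replicate 1 at 35 (67.8%). Replicate 3 had one at 26 (57.1%) and the shallowest, replicate 2, at 18 (42.8%). Each IgG library had a peak at 1 of the genes (1.61% and 2.88%). At starts the spread between libraries was wider. A peak within 1 kb of a start was found at 24 of 43 genes in MYT1L replicate 1 (background 53.3%), 8 in replicate 2 (32.3%), 16 in replicate 3 (46%) and 33 in replicate 4 (68.2%). IgG replicate 1 had none (0.732%) and IgG replicate 2 had 1 (2.09%). The genes thus lay above the background share in replicates 1 and 4 and below it in replicates 2 and 3. The MYT1L libraries had 27, 8, 18 and 42 start peaks, or 23.8 ± 14.4 (SD, n = 4), and the IgG libraries 0 and 1. The ratio of means was 47.5 with a counting interval of 8.32 to 1896 (exact permutation p = 0.133).

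**Figure D1:**
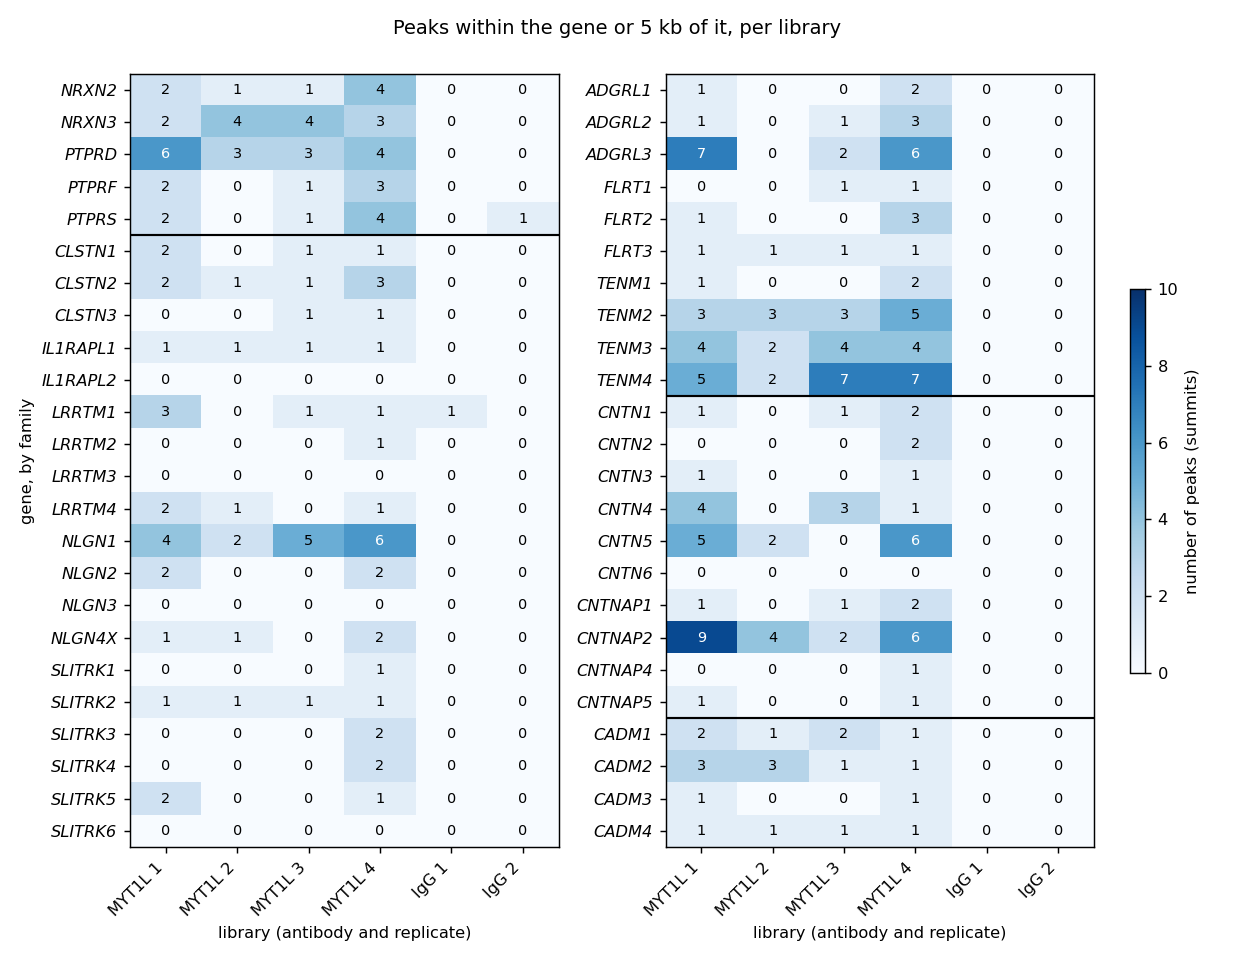
Number of peak summits within each gene or 5 kb of it, for each of the 48 genes (vertical axis, by family, with black lines between families) in each of the 6 libraries (horizontal axis). The colour scale runs from 0 to 10 peaks. CNTNAP2 in MYT1L replicate 1 has 9, and the IgG columns hold a single peak each, at LRRTM1 and PTPRS.

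**Figure D2:**
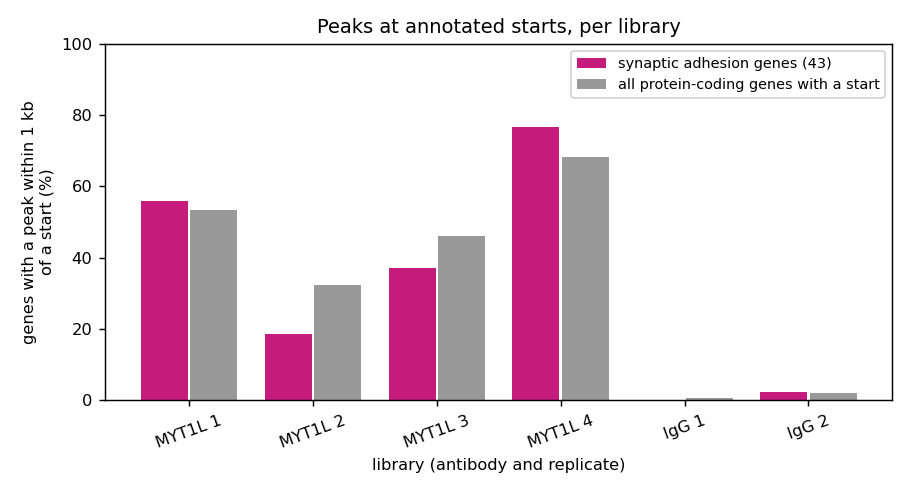
Share of genes with a peak summit within 1 kb of an annotated start (vertical axis, percent) in each library (horizontal axis), for the 43 synaptic adhesion genes with a start and for all 15842 protein-coding genes with a start. MYT1L replicate 2 has the lowest MYT1L share, 18.6% against 32.3%, and replicate 4 the highest, 76.7% against 68.2%.

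An IgG peak lay at 2 of the 48 genes, against 4.14% of all protein-coding genes. LRRTM1, a leucine-rich repeat protein of excitatory synapses, had one of 5.88-fold enrichment with a pileup of 7 fragments in IgG replicate 1, at chr2:80303045-80303269. It lay 1006 bp from the reproducible region at the LRRTM1 start and overlapped a peak of MYT1L replicate 1 alone. PTPRS, a presynaptic receptor phosphatase, had an IgG replicate 2 peak of 4.60-fold with a pileup of 6, at chr19:5339913-5340121. That peak overlapped a region with a peak in MYT1L replicates 1 (4.05-fold) and 4 (5.65-fold), and its summit lay 777 bp from the PTPRS start. The MYT1L folds at this place were below and above the control's.

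Gene length bears on any count over whole genes, since the median length of these genes was 229 kb and that of all protein-coding genes 24.1 kb. Protein-coding genes were split by length into 10 classes of equal size, and the share with a reproducible region rose from 24.5% in the shortest to 69.3% in the longest. At the shares of their own classes 28.5 of the 48 genes (59.5%) would have a reproducible region, against the 22 (45.8%) observed. In the longest class 15 of 25 had one, against 69.3%, and in class 9, 3 of 5 had one, against 64.6%. Class 4 gave 2 of 4 (background 40.4%) and class 5 gave 2 of 3 (46.8%), and the 11 genes in the other classes had none. For starts, whose window of 1 kb does not grow with gene length, the class shares gave 21.6 of 43 (50.1%), against the 15 (34.9%) observed. In the longest class 10 of the 22 genes with an annotated start had one there, against 58%. Genes with more starts have more such windows. The mean was 1.72 starts per gene with a start here and 1.40 over all protein-coding genes. Neighbouring starts of a gene can share a region. Counted by start, 22 of the 74 had a reproducible region (29.7%), against 38.6% of all protein-coding starts. These are descriptions of a list chosen by name, with no test.

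The shorter members were the ones furthest below the background. Of the 18 genes of at least 500 kb, 13 had a reproducible region (background 75.2%) and 9 of 16 had one at a start (57.8%). Of the 30 shorter genes, 9 had a region (47.6%) and 6 of 27 had one at a start (42%). The 6 are CLSTN1, FLRT3, LRRTM1, NLGN4X, PTPRF and SLITRK2.

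**Figure D3:**
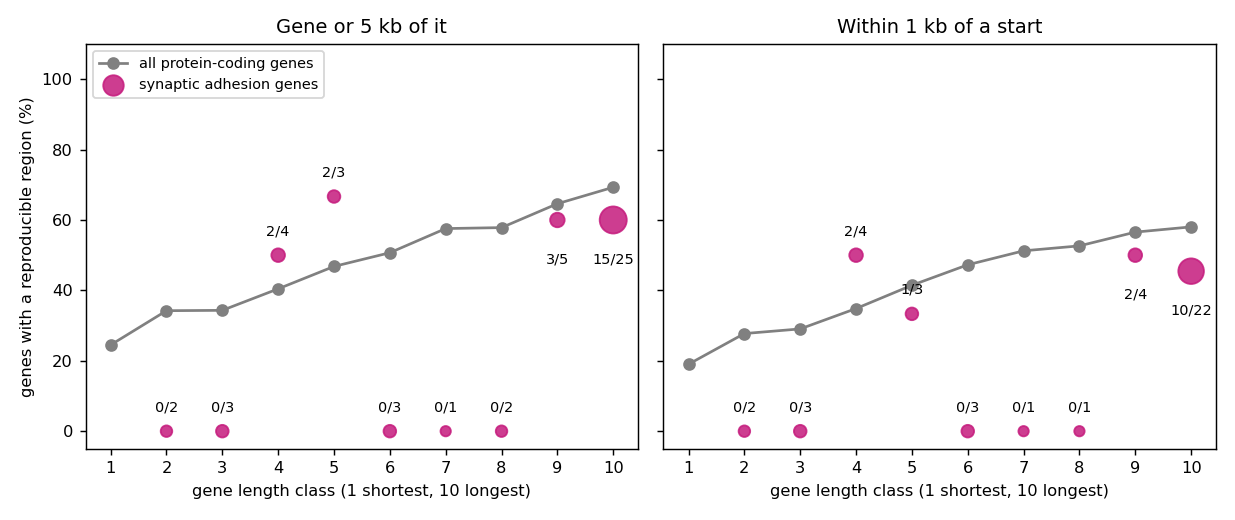
Share of genes with a reproducible MYT1L region free of IgG peaks (vertical axis, percent) by gene length class (horizontal axis), within the gene or 5 kb of it on the left and within 1 kb of a start on the right. Grey points are all protein-coding genes of a class, coloured points are the synaptic adhesion genes with the count written beside them, and larger points stand for more genes. In class 10 the points read 15 of 25 and 10 of 22, both under the grey line.

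Away from the starts the long bodies of these genes were sparse in regions. The 43 genes with an annotated start have 22.1 Mb of body, which held 11 reproducible regions more than 1 kb from a start, or 0.498 per Mb. Protein-coding genes as a whole had 1.44 per Mb, those of the longest class 1.12 and those of at least 500 kb 0.756. Among these genes the density was 0.566 per Mb in those of at least 500 kb, and the shorter ones had none in 2.65 Mb. Counting regions seen in any MYT1L library, the density was 4.35 per Mb against 12.1 over all protein-coding genes. For genes of at least 500 kb it was 3.91 per Mb among the members and 7.14 per Mb over all 315 such genes.

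Of the 158 regions, 97 (61.4%) were seen in 1 MYT1L library, 30 in 2, 13 in 3 and 18 in all 4, against 58.1% of all 49028 regions in 1 library. Reproducible regions made up 19.6% of the members' regions and 25.1% of all regions. All 31 had a peak in MYT1L replicate 1, and 22, 28 and 30 had one in replicates 2, 3 and 4. Over all reproducible regions the shares were 95.7%, 64.6%, 86.8% and 98.3% in replicates 1 to 4. The highest fold was in replicate 4 for 24 of the 31 (77.4%), against 69.3% of all reproducible regions. Folds below are the authors' own values for the highest summit in a library and compare a peak with its local background in that library. Their formula adds 1 to both the pileup and the background, which lowers the fold most where the background is low. The lowest background shared by peaks was 1.18, 0.421, 1.05 and 0.895 in MYT1L replicates 1 to 4. Folds are therefore not on the same scale in every library. A mean fold is taken over the libraries with a peak. Its median was 6.03 over the members' reproducible regions and 6.29 over all such regions.

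Among the 5 presynaptic hubs, 4 had a reproducible region. The background for this and the later family counts is 48% of protein-coding genes, or 42.2% at a start. Median gene length ran from 29.9 kb in the postsynaptic partners to 738 kb in the latrophilins and their ligands. The family counts are not adjusted for length. PTPRD, a receptor phosphatase that binds several postsynaptic partners, had 3, tied with NLGN1 for the most of any member. At its 5′ start (chr9:10612677-10613360) the fold was 4.79, 8.23, 7.80 and 13.0 in MYT1L replicates 1 to 4, or 8.47 ± 3.41 (SD, n = 4). All 4 libraries had the peak, with pileups of 10, 12, 15 and 35 fragments over local backgrounds of 1.29, 0.580, 1.05 and 1.76. Replicate 4 had the highest fold. The region also covered the start of PTPRD-DT, a noncoding RNA transcribed the other way. Inside the gene, 1755 kb from its 5′ end, a region at chr9:8857430-8858338 had folds of 6.94, 6.34 and 9.28 in replicates 1, 3 and 4, or 7.52 ± 1.55 (SD, n = 3). It covered the start of PTPRD-AS1, an antisense RNA, and peaks carry no strand, so the signal cannot be assigned to either gene.

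NRXN3, a neurexin, had 2 reproducible regions, both in all 4 libraries, and neither lay at its 5′ end. Neurexin genes are known to make a long form from an upstream promoter and a shorter form from an internal one. The region at the internal start (chr14:79279047-79279647), 1109 kb from the 5′ end, had folds of 6.04, 5.12, 4.63 and 7.24 in replicates 1 to 4, or 5.76 ± 1.14 (SD, n = 4). Neither of the other annotated starts of NRXN3 had a region. PTPRF, a related receptor phosphatase, had a start region in 3 libraries with a mean fold of 5.18. NRXN2 had one at the gene's edge in all 4 libraries, with a mean fold of 5.17. No start of NRXN2 was used here, so this region is not counted at a start. PTPRS had none.

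Of the 19 postsynaptic partners, 7 had a reproducible region, 6 of them at a start. NLGN1, a neuroligin of excitatory synapses, had 3. At its 5′ start (chr3:173395363-173396048) the fold was 5.57, 5.76 and 8.68 in replicates 1, 3 and 4, or 6.67 ± 1.75 (SD, n = 3), with no peak in replicate 2. Its other regions, 55.9 kb and 563 kb into the gene, were weaker, with mean folds of 4.55 and 4.95. NLGN4X, the X-linked neuroligin, had a region at its downstream start (chrX:6226100-6227605) with folds of 7.54, 4.20 and 7.93 in replicates 1, 2 and 4, or 6.56 ± 2.05 (SD, n = 3). Replicate 2 had the lowest fold there, with pileups of 16, 5 and 33 fragments over local backgrounds of 1.26, 0.430 and 3.29 in replicates 1, 2 and 4. The region also covered the start of an unnamed neighbouring locus. NLGN2, the neuroligin of inhibitory synapses, had a region in replicates 1 (4.59-fold) and 4 (5.26-fold) at its outer 5′ boundary, which is not among the annotated starts used.

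CLSTN1 and CLSTN2, calsyntenins of the postsynaptic membrane, both had a start region. For CLSTN2 (chr3:139934697-139935968) the fold was 6.04, 5.91, 5.94 and 9.42 in replicates 1 to 4, or 6.83 ± 1.73 (SD, n = 4). By this fold replicates 1 to 3 lay close together and replicate 4 stood above them. For CLSTN1 (chr1:9823045-9824465) it was 5.85, 4.55 and 7.71 in replicates 1, 3 and 4, or 6.03 ± 1.59 (SD, n = 3). The third calsyntenin, CLSTN3, had a start peak in 1 library.

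SLITRK2, an X-linked leucine-rich repeat protein that binds receptor phosphatases, was the one SLITRK gene of the 6 with a reproducible region. At its start (chrX:145817620-145818534) the fold was 6.41, 4.89, 5.10 and 9.19 in replicates 1 to 4, or 6.40 ± 1.98 (SD, n = 4). SLITRK1, SLITRK3, SLITRK4 and SLITRK5 had start regions in 1 or 2 libraries. LRRTM1 (chr2:80304275-80304708) had folds of 4.61, 4.93 and 8.76 in replicates 1, 3 and 4, or 6.10 ± 2.31 (SD, n = 3). It was the one member of its 4-gene family with a reproducible region. IL1RAPL1, a partner of PTPRD, had none at its start but a single region 747 kb into the gene (chrX:29333461-29335039), present in all 4 libraries with folds of 6.89, 7.88, 6.80 and 8.52, or 7.52 ± 0.825 (SD, n = 4). These 4 values were closer together than at most of the starts.

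Of the 10 latrophilins and their ligands, 6 had a reproducible region, 5 of them at a start. TENM3, a teneurin, had the highest mean fold of any start region. At its internal start (chr4:182448254-182449304), 1001 kb from the 5′ end, the fold was 6.41, 8.23, 8.86 and 10.7 in replicates 1 to 4, or 8.55 ± 1.78 (SD, n = 4). All 4 libraries had the peak, with pileups of 13, 12, 19 and 37 fragments. TENM4 had the most regions of any member, 14, of which 2 were reproducible. At its start (chr11:79439994-79441191) the fold was 5.24, 4.93 and 7.36 in replicates 1, 3 and 4, or 5.85 ± 1.32 (SD, n = 3). In its body, 562 kb from the 5′ end (chr11:78879100-78879837), it was 6.89, 8.06, 4.52 and 6.73 in replicates 1 to 4, or 6.55 ± 1.48 (SD, n = 4), and here replicate 2 was the highest.

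TENM2 had 2 reproducible regions, both in all 4 libraries. The region on its outer 5′ boundary (chr5:166978431-166979411) had folds of 7.03, 3.94, 6.67 and 12.3 in replicates 1 to 4, or 7.48 ± 3.49 (SD, n = 4), a wide spread. This boundary is not among the annotated starts used, so it is not counted as a start. The second, 881 kb into the gene (chr5:167858960-167860414), had folds of 6.26, 5.89, 6.01 and 5.72, or 5.97 ± 0.225 (SD, n = 4), the narrowest spread of the members' regions found in all 4 libraries. TENM1 had start peaks only in single libraries.

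FLRT3, a leucine-rich repeat ligand of latrophilins, had a start region (chr20:14337431-14337800) in all 4 libraries with folds of 5.49, 4.93, 4.88 and 6.93, or 5.56 ± 0.958 (SD, n = 4). FLRT1 and FLRT2 had start regions in 1 or 2 libraries. The latrophilins themselves were lower. ADGRL3 had 2 start regions with mean folds of 4.75 and 4.55, and ADGRL2 had one of 5.01 that lay within 1 kb of 6 annotated starts, 496 kb from the gene's 5′ end. All 3 lacked a peak in replicate 2, the shallowest library. ADGRL1 had no reproducible region.

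The 10 contactins and Caspr proteins had the lowest share of the 5 families, with a reproducible region at 2 (background 48%). Their median length was 366 kb. The families hold 4 to 19 genes, and no test was made between them. Contactins are membrane-anchored immunoglobulin proteins, and Caspr proteins are their neurexin-like partners. CNTNAP2, the longest member at 2304 kb, had 2. At its start (chr7:146115873-146117183) the fold was 7.13, 4.93, 4.39 and 10.6 in replicates 1 to 4, or 6.76 ± 2.82 (SD, n = 4). Close to its 3′ end, 2223 kb from the start (chr7:148339393-148339849), it was 8.20, 7.21, 4.81 and 11.9, or 8.02 ± 2.94 (SD, n = 4), the highest mean of the reproducible regions away from starts. Replicate 4 was highest and replicate 3 lowest at both.

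A further CNTNAP2 region, chosen after its values were seen, lay at chr7:148331535-148331805. It had a fold of 15.2 in both replicate 1 and replicate 4, with pileups of 68 and 48 fragments, and no peak in replicates 2 and 3. No reproducible member region had a fold as high in any library. CNTN5 had a body region in 3 libraries with a mean fold of 5.53. CNTN1 had no region at its annotated starts. It had one in replicates 1 (4.12-fold) and 4 (5.37-fold) at its outer 5′ boundary, which is not among the annotated starts used. CNTN2, CNTN3, CNTN4, CNTN5, CNTNAP1, CNTNAP4 and CNTNAP5 had a start region in 1 or 2 libraries only, so 8 of 10 genes had some start region and 1 of 10 a reproducible one.

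Of the 4 SynCAMs, immunoglobulin proteins that pair across the cleft, 3 had a reproducible region and none had one at a start used here. No start was used for CADM1 and CADM2. CADM2 had folds of 5.38, 6.82, 7.09 and 9.98 in replicates 1 to 4 at chr3:84958635-84960007, or 7.32 ± 1.93 (SD, n = 4). This region lies on the gene's edge, as does that of CADM1, with a mean fold of 5.18. The CADM4 region (chr19:43619084-43620080) had folds of 6.30, 6.48, 4.43 and 9.19, or 6.60 ± 1.96 (SD, n = 4). It lay in the 3′ flank of CADM4 and covered the start of its neighbour ZNF428, so it cannot be assigned to CADM4. CADM3 had a start region in replicates 1 (4.20-fold) and 4 (7.68-fold).

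**Figure D4:**
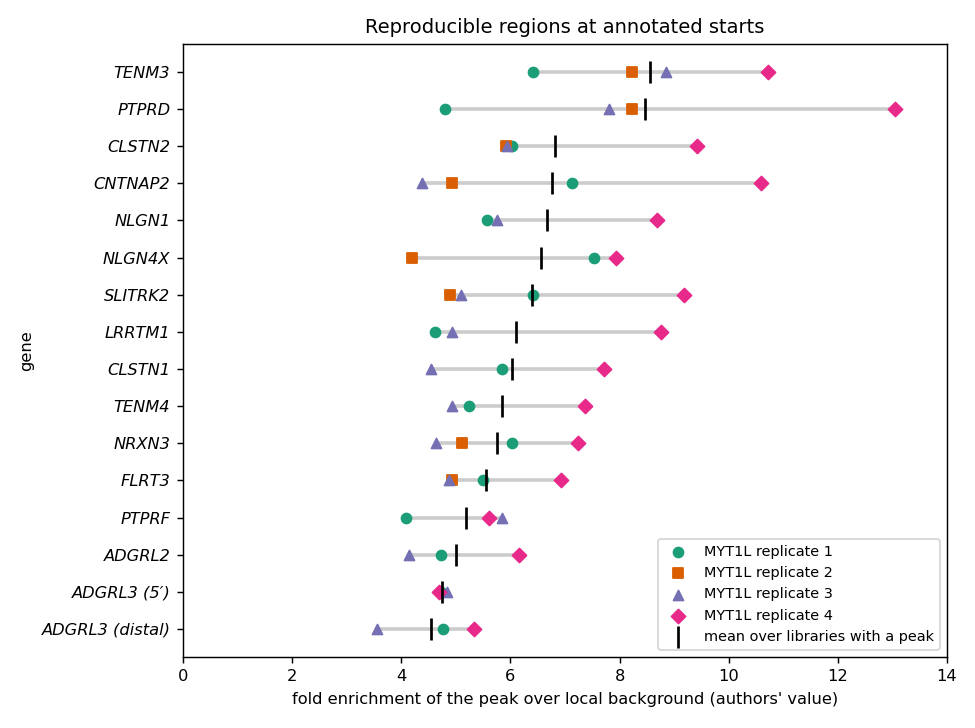
Fold enrichment over local background (horizontal axis, the authors' value) of the 16 reproducible regions at annotated starts (vertical axis, by gene, in order of mean fold). Symbols mark the 4 MYT1L replicates, black ticks the mean over the libraries with a peak, and grey bars the range. ADGRL3 has 2 regions, one at its 5′ end and one distal to it. TENM3 and PTPRD are at the top with means of 8.55 and 8.47, and replicate 4 is the highest symbol in 14 of the 16.

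The strength of start regions did not set these genes apart. The median of the mean folds was 6.07 at the 16 start regions of these genes and 6.65 over all reproducible regions at protein-coding starts. For the 15 regions not at an annotated start of their gene it was 5.97, against 5.79. Of the 16 start regions 7 were found in all 4 libraries, compared with 11 of the 15 elsewhere. MYT1L replicate 2 had a peak in 8 of the 16 start regions and in 14 of the 15 others. The 15 are not all away from gene starts. They include 3 at the ends of genes for which no start was used (CADM1, CADM2 and NRXN2). They also include the TENM2 region on its outer 5′ boundary and the CADM4 region over the ZNF428 start. Each of these was found in all 4 libraries, so the contrast is not one of starts against gene bodies. Per library, the median fold at the start regions was 5.53, 5.02, 4.93 and 7.82 in replicates 1 to 4. Of the 31 regions, 12 lay over 10 kb from any annotated start of their own gene, and 5 lay within 1 kb of the start of another gene.

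**Figure D5:**
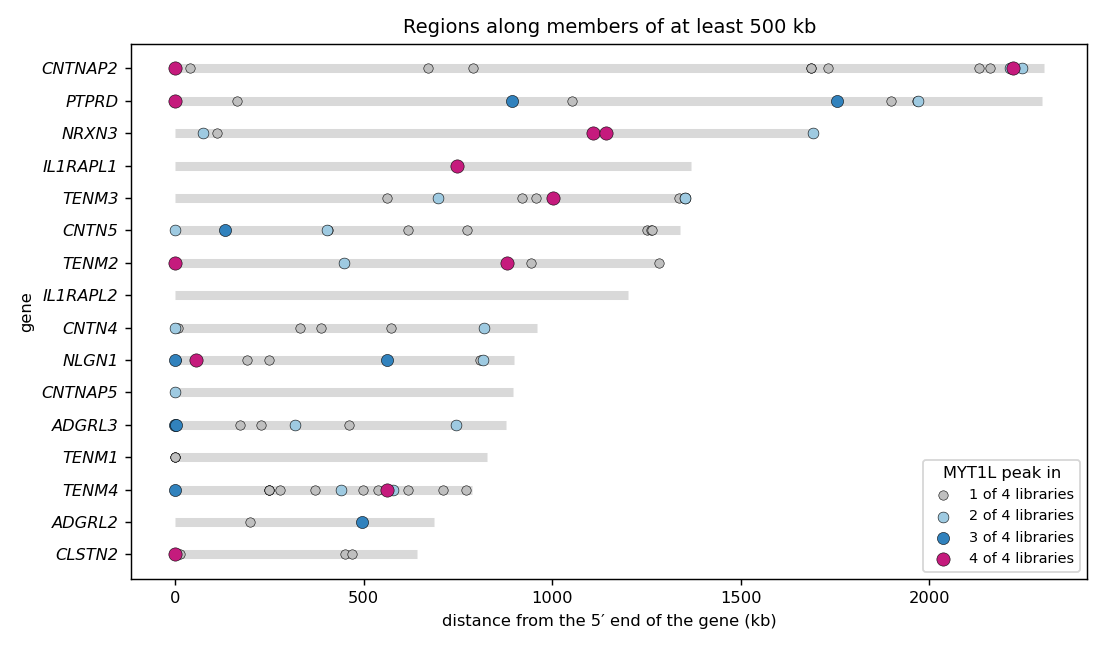
Position of MYT1L regions (points, at the summit of the strongest peak) along the 16 members of at least 500 kb with an annotated start, drawn from the 5′ end of the gene (horizontal axis, kb) with grey bars for gene length. Colour and size give the number of MYT1L libraries with a peak, from 1 to 4. CNTNAP2 and PTPRD have reproducible regions at the 5′ end and far inside the gene, NRXN3 has them inside it, and IL1RAPL2 has no region.

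Which genes counted as having a reproducible region depended on the strength and number of peaks asked for. With a deposited −log10 q of at least 5, the count was 10 of 48 genes (30.6% of all protein-coding genes), and 5 of 43 had one at a start (27.1%). The 10 were CADM2, CADM4, CLSTN2, CNTNAP2, IL1RAPL1, NLGN1, PTPRD, TENM2, TENM3 and TENM4. With peaks needed in all 4 libraries, 15 genes had a region (25.3%) and 7 had one at a start (22.3%). Leaving out MYT1L replicate 2, the shallowest library, and asking for 2 of the other 3 raised the counts to 32 genes (63.3%) and 23 genes with a region at a start (55.3%). At starts the share of these genes was below the background in each of these 3 settings: 11.6%, 16.3% and 53.5%. Over whole genes it was below the background at 20.8% in the first and above it at 31.3% and 66.7% in the others. At the shares of their length classes 18.6, 15.9 and 35.9 genes would have had a region, against the 10, 15 and 32 observed.

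Outside the 48, 40 other synaptic adhesion genes, such as cerebellins, netrin-G proteins, immunoglobulin adhesion proteins and ephrins, were listed by name. Of these, 23 had a reproducible region (57.5%, against 48% of all protein-coding genes). Of the 30 with an annotated start, 14 had one at a start (46.7%, against 42.2%). Their median length was 109 kb, against 24.1 kb for all protein-coding genes, and these shares are not adjusted for length. An IgG peak lay at 3 of the 40 (background 4.14%). The highest mean folds at a start were 8.24 ± 0.908 (SD, n = 4) for NPTN, an immunoglobulin adhesion protein, and 8.19 ± 3.28 (SD, n = 4) for ADGRB3, an adhesion receptor that binds C1q-like proteins. IL1RAP, a partner of receptor phosphatases, followed with 8.05 ± 1.03 (SD, n = 3), and NRCAM, an adhesion protein of the L1 family, with 7.75 ± 1.27 (SD, n = 4). These folds were in the range of those of TENM3 and PTPRD, and no test was made between the lists.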

How the data were processed

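Peak lists of 6 CUT&RUN libraries were analysed, 4 for MYT1L and 2 for IgG, with groups and replicate numbers taken from the sample titles. The lists are on hg38 and were made with MACS2, per the submitters' processing notes; the aligner, settings and control library are not given in the sources used here. For each peak the authors deposited a fold over background, with its −log10 p-value and −log10 q-value. The fold is a ratio of pileup to local background with a constant added to both. The deposited score is 10 times the latter, truncated. These values served to describe, rank and filter peaks within a list. No list starts below a −log10 q of 2.

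Peaks were assigned by summit to a gene or 5 kb of it, and to starts within 1 kb, with genes and starts from RefSeq (GRCh38.p14). Regions were assigned by overlap. The starts of ADGRL1, CADM1, CADM2, LRRTM4 and NRXN2 were not used here. Whole-number pileups were recovered from the fold and the −log10 p with the MACS formulas, within 0.0002, for 99.95% or more of each list, and gave the depth and the thinning. The recovery of pileups, the building of regions and the overlap and window counts were tested on simulated data. The depth estimate and the thinning were not. Group differences were tested by exact permutation over 15 assignments of the labels, two-sided; counts of genes have no test and stand beside the share of all genes. The rule for named genes gives every library's value for the 12 start regions and the 8 other reproducible regions with the highest mean folds, and for genes with an IgG peak. The genes, lists and rules were chosen with earlier results of these data known. Python 3.11.15, pandas 2.3.3 and scipy 1.17.1 were used.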

Additional observations from a re-analysis of the deposited data

Results flagged for a closer look

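At the start of CLSTN2 the fold of 9.42 in MYT1L replicate 4 stood far from the other 3 libraries, whose folds were 6.04, 5.91 and 5.94. The gap to the nearest library was 0.964 of the whole range, above Dixon's 95% critical value for 4 libraries. This was the only one of 21 sets of 4 libraries checked to pass it, as chance alone does in about 5% of sets. The pileup there was 39 fragments in replicate 4, against 19, 9 and 13 in replicates 1 to 3. The local background was 3.25 in replicate 4, against 2.31, 0.692 and 1.36 in replicates 1 to 3. The fold formula adds 1 to both terms, which lowers the fold most where the background is low. The fold alone therefore does not show that replicate 4 stood apart.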

How the results depend on the processing

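The log2 ratio of peaks at these genes ranged from 3.10 to 6.27 over 12 alternatives and that of start peaks from 4.57 to 5.86 over 7, and each kept its direction. The replicate block, which set libraries of the same number against each other (numbers 1 and 2 only), gave a log2 ratio of 5.77 for peaks and a difference in share of 0.193 percentage points. These numbers are not stated to pair the libraries. The difference in share turned to -0.0512 percentage points with the 976 strongest peaks of every list (exact permutation p = 0.8). It kept its direction in the other 11 alternatives and was at most 0.238, and the cause was not tested. The 22 genes with a reproducible region became 10 when a −log10 q of 5 or more was asked for, and 22 to 32 when a library was left out. The 15 genes with one at a start became 5 under that limit, 23 with 2 of 4 libraries and 7 with all 4. They became 14 to 23 when a library was left out, the highest without MYT1L replicate 2. With a MYT1L library left out, 2 of the other 3 were asked for, which is a looser rule. Asking for 2 of 4 with none left out also gave 32 genes (65.3% of all protein-coding genes). Without MYT1L replicate 2 that background was 63.3%. Of the 22 genes, 16 kept one when each MYT1L list was cut to its 12310 strongest peaks, where 33.7% of all protein-coding genes had one. Some ratios could not be computed because libraries had 0 peaks. These were both IgG libraries with a −log10 q of 5 or more, and MYT1L replicates 2 and 3 (for starts, all 4) with 976 top peaks per list. The ratio of start peaks could not be computed with a window of 500 bp, without IgG replicate 2 or with the block, where the IgG value was 0. MYT1L replicate 2 and the IgG libraries were the shallowest, but list length did not follow depth alone: replicate 3 was deeper than replicate 4 and had fewer peaks.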
